A study of Homo sapiens with 6 samples.

Results

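Complement genes were followed in HK-2 cells, an immortalised line of human proximal tubular epithelium, as a set of 9 genes chosen by name, with earlier results of these data known. They are the central component C3, the convertase protease CFB, the inactivating protease CFI, the proteases C1R and C1S of the first component, their inhibitor SERPING1, and the membrane regulators CD46, CD55 and CD59. All 9 were found among the 38126 Ensembl genes measured. The cells had been exposed to phosphoramidon for 24 h (n = 3) or left untreated (n = 3), and RNA was sequenced in bulk. Phosphoramidon inhibits zinc metallopeptidases such as neprilysin, and the labels give no dose. All cultures shared a serum-free keratinocyte medium with bovine pituitary extract and EGF and were near confluence when treatment began. Titles of the untreated libraries carry the unexplained letters CSE, so the grouping rests on the treatment label. HK-2 is a single immortalised line. Separate cultures are not mentioned for the replicates, and the p-values then describe only how libraries vary, which may be technical.

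Complement is a cascade of secreted proteins that tags surfaces for clearance. C1R and C1S start the classical pathway, CFB forms the alternative convertase, and both routes cleave C3, whose larger fragment binds covalently to nearby surfaces. Host cells protect themselves with CFI, which cuts that fragment with the help of cofactors such as CD46, with CD55, which speeds the decay of convertases, and with CD59, which blocks the membrane attack complex. The liver makes most circulating complement, and kidney tubular cells are known as a local source of C3.

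Values are FPKM, fragments scaled for gene length and for the assigned fragments of a library, and the 6 libraries held 18690100 to 24919568 assigned fragments. On a gene of 1 kb, 1 fragment was worth 0.0401 to 0.0535 FPKM. Of the tubular markers, PAX8 averaged 70.5 FPKM with phosphoramidon and 63.7 FPKM untreated, while 13 of 15 averaged below 1 FPKM (SLC34A1 and GGT1 fell), with SLC22A6 and SLC22A8, organic anion transporters, at 0 in every library. Macrophage markers summed to 0.955 to 1.10 FPKM with phosphoramidon and 1.28 to 1.58 FPKM untreated (9 of 12 had a value, MARCO was at 0 in every library and CSF1R fell), and endothelial markers summed to 0.140 to 0.152 and 0.109 to 0.162 FPKM. Hepatocyte markers summed to 32.1 to 36.9 FPKM with phosphoramidon and 32.9 to 36.3 FPKM untreated, nearly all of it SERPINA1. In bulk RNA, fewer cells of a type and less RNA per cell cannot be told apart.

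Regulatory sequence is shown for a pair of members for which a RefSeq promoter (GRCh38.p14, 250 bases before to 50 after a start) was at hand. C1R is the member of the group that fell with such an entry, and CFB is a component whose promoter holds several cytokine-type motifs while its transcript was close to 0 in both groups. Capitals mark matches to any of 5 motifs searched on both strands, and all are written in the direction of the gene. The CFB window is chr6:31945845-31946144 (plus strand), and the windows of the pair of C1R starts are chr12:7091844-7092143 and chr12:7092396-7092695 (minus strand).
CFB: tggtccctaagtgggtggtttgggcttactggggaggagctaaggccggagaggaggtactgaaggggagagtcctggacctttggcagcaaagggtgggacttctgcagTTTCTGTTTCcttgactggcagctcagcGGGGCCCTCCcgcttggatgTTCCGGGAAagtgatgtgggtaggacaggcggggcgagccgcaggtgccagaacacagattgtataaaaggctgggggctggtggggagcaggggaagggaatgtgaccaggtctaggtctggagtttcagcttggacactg
C1R, inner start: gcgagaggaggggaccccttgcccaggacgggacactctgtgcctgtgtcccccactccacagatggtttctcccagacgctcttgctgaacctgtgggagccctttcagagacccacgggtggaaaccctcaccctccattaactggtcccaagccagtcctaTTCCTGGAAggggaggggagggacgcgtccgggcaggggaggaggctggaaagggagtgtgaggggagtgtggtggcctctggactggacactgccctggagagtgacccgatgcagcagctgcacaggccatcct
C1R, outer start: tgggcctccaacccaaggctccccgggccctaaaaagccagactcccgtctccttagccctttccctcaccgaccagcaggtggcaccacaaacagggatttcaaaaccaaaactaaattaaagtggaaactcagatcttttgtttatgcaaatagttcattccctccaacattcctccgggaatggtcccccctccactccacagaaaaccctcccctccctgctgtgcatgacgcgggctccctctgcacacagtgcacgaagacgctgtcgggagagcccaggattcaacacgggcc
The motifs were TTCNNNGAA for STAT factors, TTTC, any 2 bases and TTTC again for the interferon response element, TTGCNNCAA for C/EBP, TGANTCA for AP-1, and the kappaB consensus. Among 35116 promoters they occurred in 7.66%, 3.57%, 1.98%, 7.71% and 11.3%, in that order. CFB held a STAT, an interferon and a kappaB match, at -92, -140 and -112 from the start, and these did not overlap. The inner C1R start held a STAT match at -86 and the outer start held none of the 5. Of the other members, entries were matched for CFI, CD46, CD55 and CD59, 11 windows over 6 of 9 members in all. CFI, CD46 and CD55 had no match in these windows. The 4 windows of CD59 held 3 AP-1 matches in one and the same STAT match in an overlapping pair. C3, C1S and SERPING1 are named only.

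The members spanned more than 3 orders of magnitude in level, and their order hardly varied. In all 6 libraries C3 was highest, followed by CD46, CD59, CD55, C1S, C1R and CFI, and CFB and SERPING1 shared the last places. C3 ranked 426, 452 and 463 of 38126 genes in the phosphoramidon libraries and 246, 276 and 257 in the untreated ones. CD46 ranked 839 to 962 with phosphoramidon and 980 to 1154 untreated. Within each group no neighbours from C3 down to C1R had overlapping ranges, whereas CFI overlapped CFB with phosphoramidon and CFB overlapped SERPING1 in both groups. These levels are per length over all annotated exons, so a gene with long, rarely used exons is set low.

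**Figure D1:**
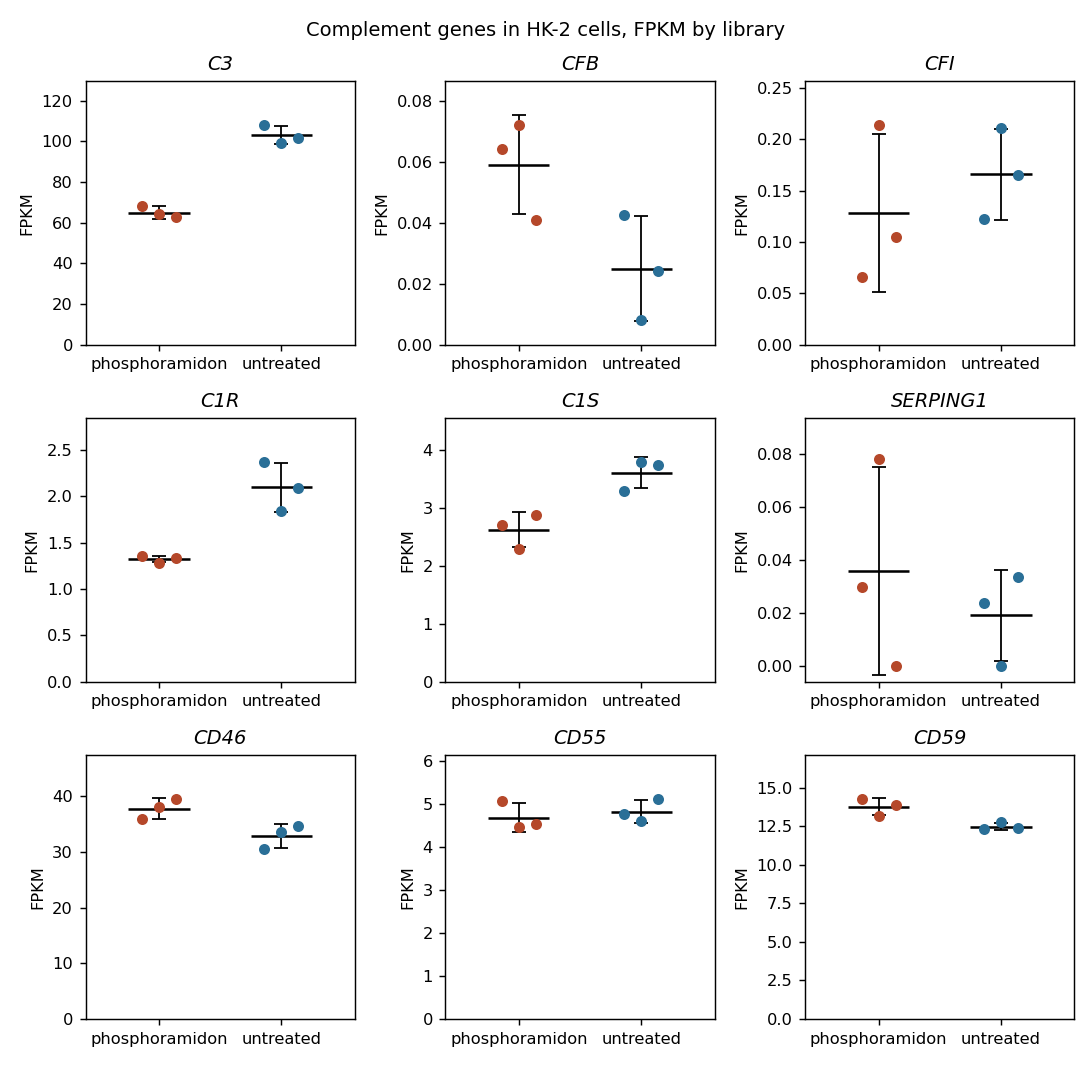
FPKM (vertical axes, each from its own scale) of the 9 complement genes in 3 phosphoramidon libraries (left in each panel) and 3 untreated libraries (right), with points for libraries, a line for the mean and bars for 1 SD. C3, C1R and C1S are lower in every phosphoramidon library than in any untreated one, as are 18.4% of tested genes. CD46 and CD59 are slightly higher in these deposited values, as are 31.3% of tested genes, but did not pass after scaling between libraries. CFB, CFI and SERPING1 lie below 0.3 FPKM.

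The secreted components C3, C1R and C1S fell after phosphoramidon. The membrane regulators CD46, CD55 and CD59 did not pass the test in either direction. In all, 0 of 7 tested members were higher and 3 were lower by limma at an adjusted p of 0.05, against 15.7% and 18.0% of the 16110 genes tested, 2530 higher and 2903 lower (33.7% in either direction). At an unadjusted p under 0.05, CD46 also passed as higher. The median log2 fold change of the 7 was -0.30, against 0.01 over all genes tested. That median is the unstable estimate of CFI, a gene with 6 to 26 fragments per library. With so few genes, the counts and the median say nothing about the set as a whole. CFB and SERPING1 had too few fragments to be tested. The 7 tested members had at least 10 fragments in at least 3 libraries. Without scaling between libraries the split of all genes was 3650 higher and 2168 lower, the median over all genes was 0.07, and the members were 2 higher (CD46 and CD59) and 3 lower.

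C3, the component on which all pathways converge, had 68.3, 64.0 and 62.6 FPKM in the phosphoramidon libraries, against 108, 99.3 and 102 FPKM in the untreated ones. Every phosphoramidon library lay below every untreated one, as was the case for 18.4% of tested genes in that direction. The means were 65.0 ± 3.0 and 103 ± 4.48 FPKM (SD, n = 3 each), and the log2 fold change on log2(FPKM + 0.1) was -0.74 ± 0.06 (SE), a level 0.60 times that of untreated cells (95% interval 0.55 to 0.66, limma adjusted p = 5.0e-05). The gene (ENSG00000125730, chromosome 19, 6677704 to 6730562, minus strand, in GRCh38 and GENCODE 29, as for all genes here) shares no exon with another annotated gene, and 10195 to 21133 fragments per library lay behind each value. A change beyond 1.5-fold, which 0.658% of tested genes showed as lower, was not shown for C3 (limma's treat, adjusted p = 0.54). C3 fell in every alternative fit, by 0.66 to 0.78 on the log2 scale.

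C1R and C1S encode the paired serine proteases of the first component, and the pair lies within a short stretch of chromosome 12 on opposite strands. C1R (ENSG00000159403, 7080199 to 7092607, minus strand) had 1.36, 1.28 and 1.33 FPKM in phosphoramidon libraries, against 2.37, 1.84 and 2.09 FPKM in untreated libraries. C1S (ENSG00000182326, 6988259 to 7071032, plus strand) had 2.72, 2.29 and 2.88 FPKM with phosphoramidon, against 3.30, 3.79 and 3.75 FPKM untreated. For neither gene did the groups overlap, as was so for 18.4% of tested genes in that direction. C1R averaged 1.32 ± 0.0369 and 2.1 ± 0.264 FPKM, with a log2 fold change of -0.69 ± 0.11 (SE) and limma adjusted p = 0.0023. C1S averaged 2.63 ± 0.303 and 3.61 ± 0.273 FPKM, with a log2 fold change of -0.52 ± 0.10 (SE) and limma adjusted p = 0.0040. The levels were 0.62 (C1R, 95% interval 0.52 to 0.74) and 0.70 (C1S, 0.60 to 0.81) times those of untreated cells. A change beyond 1.5-fold was not shown for either gene by limma's treat. Both calls held in all 14 alternative fits, and with a pseudocount of 1 the log2 fold change of C1R was -0.46.

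The ratio of C1S to C1R within a library was 2.0, 1.78 and 2.16 with phosphoramidon and 1.39, 2.06 and 1.80 untreated. These ranges overlapped (difference 0.19 on the log2 scale, exact permutation p = 0.5, adjusted p = 0.6 over the 6 ratios computed). With 3 against 3 libraries this test gives no p below 0.1, so a shift of any size could not pass the threshold. It cannot decide whether the proportion of the proteases changed. The difference was 0.04 without untreated replicate 1 and 0.32 without untreated replicate 2. C1R values became whole fragments at an exon length of 5875 bases in place of the 5885 of GENCODE 29, giving 149, 188 and 153 fragments with phosphoramidon and 327, 263 and 304 untreated. C1R shares 672 exon bases, 11.4% of its length, with the neighbouring protease gene C1RL on the same strand, and C1S shares 229 with EMG1, a ribosome biogenesis factor. C1RL had 4.87, 4.72 and 4.18 FPKM with phosphoramidon and 4.94, 5.55 and 4.98 FPKM untreated. How fragments on shared bases were assigned is not given in the sources used here.

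CD46 (ENSG00000117335), the membrane cofactor for cleavage by CFI, was the most abundant regulator, with 35.8, 38.0 and 39.4 FPKM in phosphoramidon libraries and 30.5, 33.5 and 34.7 FPKM in untreated ones. The groups did not overlap in the deposited values, as was so for 31.3% of tested genes in that direction. The means were 37.8 ± 1.81 and 32.9 ± 2.15 FPKM, and the log2 fold change of 0.13 ± 0.05 (SE; 95% interval 0.01 to 0.25) missed the threshold (limma adjusted p = 0.089). Of the 6 fits that left out a library, 5 did not call it, with 0.08 without untreated replicate 1 (adjusted p = 0.25), and that without untreated replicate 3 did (0.17, adjusted p = 0.045). It also passed in the values as deposited (0.20, adjusted p = 0.024), with voom (0.13, adjusted p = 0.024) and with the replicate number as a block (0.13, adjusted p = 0.033). The 95% interval runs from 1.01 to 1.19 times the untreated level.

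CD59 (ENSG00000085063), the inhibitor of the membrane attack complex, had 14.3, 13.2 and 13.9 FPKM with phosphoramidon and 12.3, 12.7 and 12.4 FPKM untreated. After scaling between libraries the log2 fold change was 0.07 ± 0.05 (SE; 95% interval -0.04 to 0.18, limma adjusted p = 0.29), and it passed only in the values as deposited (0.14, adjusted p = 0.038) of the 14 alternatives. CD55 (ENSG00000196352), the decay accelerating factor, had 5.05, 4.46 and 4.52 FPKM with phosphoramidon and 4.75, 4.60 and 5.10 FPKM untreated. Its groups overlapped, and the log2 fold change was -0.11 ± 0.08 (SE; 95% interval -0.29 to 0.06, limma adjusted p = 0.29). CD46 and CD55 lie in the cluster of complement regulators on chromosome 1 (207752057 to 207795513 and 207321376 to 207386804, both plus strand), and CD59 lies on chromosome 11 (33703010 to 33736491, minus strand).

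The ratio of each membrane regulator to C3 within a library was also taken, since it is the same whatever factor scales that library. Of the tested genes other than C3, 83.4% had a ratio to C3 that was higher in every phosphoramidon library than in any untreated one, with a median difference of 0.75 on the log2 scale over 16092 genes, so the ratios below restate the fall of C3. CD46 FPKM were 0.524, 0.594 and 0.630 times those of C3 with phosphoramidon, against 0.282, 0.337 and 0.341 times untreated. CD59 FPKM were 0.209, 0.206 and 0.221 times those of C3 with phosphoramidon, against 0.114, 0.128 and 0.121 times untreated. CD55 FPKM were 0.0739, 0.0696 and 0.0722 times those of C3 with phosphoramidon, against 0.0440, 0.0463 and 0.0501 times untreated. None of the 3 ratios overlapped between groups, with differences of 0.87, 0.81 and 0.62 on the log2 scale. Each had an exact permutation p of 0.1 (two-sided), the smallest that 3 against 3 libraries allow, and an adjusted p of 0.15. These differences lie around the median over all genes and show nothing particular to the regulators.

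**Figure D2:**
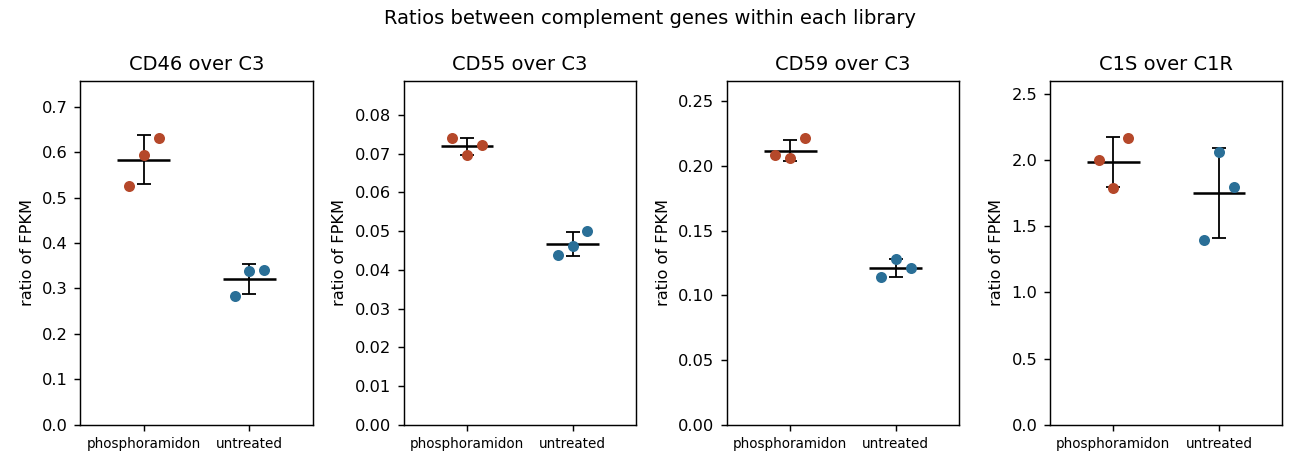
Ratios of FPKM within a library (vertical axes, from 0) for CD46, CD55 and CD59 over C3 and for C1S over C1R, with phosphoramidon libraries on the left and untreated ones on the right, lines for means and bars for 1 SD. The 3 ratios to C3 are higher in every phosphoramidon library, as for 83.4% of tested genes, while those of C1S to C1R overlap.

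CFB, CFI and SERPING1 were near the limit of detection. CFI (ENSG00000205403, chromosome 4, 109740694 to 109802179) had 6, 26 and 10 fragments in phosphoramidon libraries and 14, 25 and 20 in untreated ones, or 0.0659, 0.214 and 0.105 FPKM against 0.122, 0.211 and 0.165 FPKM. The groups overlapped, and with a log2 fold change of -0.30 ± 0.25 (SE; 95% interval -0.87 to 0.27, limma adjusted p = 0.39) no difference was detectable at this depth. The estimate was unstable, at -0.06 with a pseudocount of 1, -0.53 with 0.01, -0.10 without phosphoramidon replicate 1 and -0.55 without phosphoramidon replicate 2, and passed in none of the 13 alternatives that gave a value. CFB (ENSG00000243649, chromosome 6, 31945650 to 31952084) had 6, 9 and 4 fragments with phosphoramidon and 5, 1 and 3 untreated. Its FPKM overlapped between the groups (exact permutation p = 0.2, adjusted p = 0.4 over CFB and SERPING1). With 3 against 3 libraries this test gives no p below 0.1, so neither gene could pass the threshold. It cannot decide whether CFB or SERPING1 changed. The read-through gene AL645922.1 spans 45.0% of the exon bases of CFB, and 32.0% of those of CFI lie in AC126283.2. SERPING1, the C1 inhibitor (ENSG00000149131, chromosome 11, 57597387 to 57614853), had 2, 7 and 0 fragments with phosphoramidon and 2, 0 and 3 untreated (exact permutation p = 0.7, adjusted p = 0.7). A count of 0 allows up to 3 fragments, or 0.0426 FPKM in phosphoramidon replicate 3 and 0.0343 FPKM in untreated replicate 2, counting error only.

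The ratio of CFB to C3 was higher in all phosphoramidon libraries, as for 83.4% of tested genes, by 2.16 on the log2 scale (exact permutation p = 0.1, the smallest possible, adjusted p = 0.15), on 19 and 9 CFB fragments in all with and without phosphoramidon. With 0.1 added to both FPKM the difference was 1.02, and CFB FPKM themselves overlapped between the groups. The ratio of CFI to C3 overlapped between groups (difference 0.16, exact permutation p = 0.9, adjusted p = 0.9). Ratios of SERPING1 to C1R and C1S could not be computed, since SERPING1 was at 0 in 2 libraries. The proteases C1R and C1S had 149 to 601 fragments per library where their inhibitor had 0 to 7.

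Among other genes of the pathway, 41 of 55 listed had a value and 20 passed the filter, of which 3 were higher and 7 lower (median log2 fold change -0.15, against 0.01 over all genes tested), where 15.7% of all tested genes were higher and 18.0% lower. The other 10 did not pass.

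C5, the component that starts the terminal pathway, rose, with 1.44, 1.66 and 1.47 FPKM in phosphoramidon libraries and 0.573, 0.611 and 0.808 FPKM in untreated ones (log2 fold change 1.03 ± 0.15, SE, limma adjusted p = 9.7e-04; 0.57 with a pseudocount of 1). CLU, clusterin, a soluble inhibitor of the terminal complex, rose as well, at 32.3 ± 0.847 and 21.1 ± 0.577 FPKM (0.54). ITGB2, the shared beta chain of complement receptors 3 and 4, was the remaining gene that rose, at 2.04 ± 0.121 and 1.38 ± 0.0439 FPKM (0.46). Of its partner chains, ITGAX had a log2 fold change of -0.49 (adjusted p = 0.031), and ITGAM averaged 5.17 fragments per library and was not tested. Components of the same cascade thus moved in opposite directions, C3 and C5 by -0.74 and 1.03.

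Among the genes that fell, COLEC12, a scavenger collectin, averaged 2.38 ± 0.330 FPKM with phosphoramidon and 3.65 ± 0.189 FPKM untreated (-0.67). C3AR1, the receptor for the C3a fragment, averaged 0.596 ± 0.171 and 1.19 ± 0.0992 FPKM (-0.98, and -1.15 to -0.49 over the alternative fits). C1QBP, a mitochondrial protein first found by its binding to C1q, averaged 46.6 ± 2.59 and 53.1 ± 2.20 FPKM (-0.26). C1RL (-0.24), CTSL, a cathepsin that can cleave C3 within cells (-0.15), and ITGAX were close to the threshold. Leaving out any library but phosphoramidon replicate 1 ended the calls of C1RL (adjusted p = 0.071 to 0.15) and CTSL (0.060 to 0.093), and leaving out any but untreated replicate 1 ended that of ITGAX (0.054 to 0.099). C3AR1 and ITGAX were singled out after their values were seen. The C5a receptor C5AR1 (1.85 ± 0.260 and 1.47 ± 0.0399 FPKM) and the pentraxin PTX3 (1.2 ± 0.326 and 1.05 ± 0.211 FPKM) did not pass (adjusted p = 0.14 and 0.68). The near-identical C4A and C4B, whose fragments may be exchanged, averaged below 0.3 FPKM and did not pass either (adjusted p = 0.058 and 0.15).

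**Figure D3:**
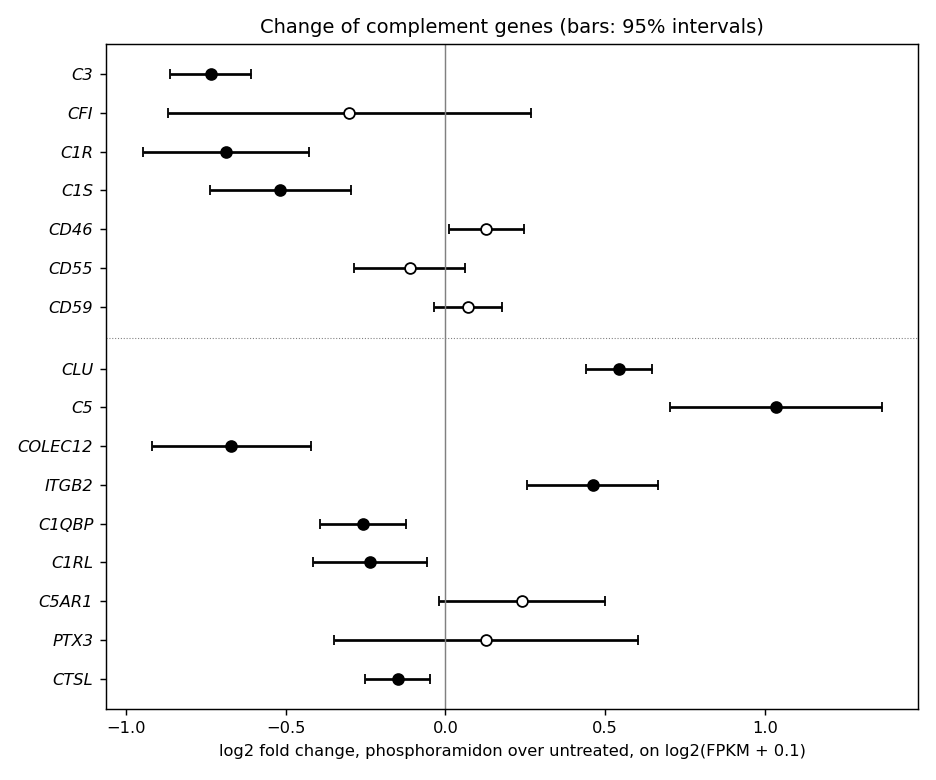
Log2 fold change of phosphoramidon over untreated on log2(FPKM + 0.1) (horizontal axis) for the 7 tested members (above the dotted line) and 9 other complement genes (below it), with 95% intervals from limma. Filled points passed at an adjusted p of 0.05: C3, C1R and C1S lie below 0, CD46, CD55 and CD59 lie near 0, and C5 (1.03) lies highest of the genes drawn.

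Genes of the signalling routes known to drive complement transcription changed in both directions. The list, called inducers below, includes the cytokines IL6, IL1 and TNF, cytokine and interferon receptors, STAT factors, NF-kappaB subunits and C/EBP factors. It also holds the inhibitors NFKBIA, SOCS1 and SOCS3, so its counts are not of drivers alone. Of 27 tested, 11 were higher, 5 were lower and 11 did not pass (median log2 fold change 0.15), against 15.7% higher and 18.0% lower over all tested genes. NFKBIA, an inhibitor that NF-kappaB itself induces, averaged 31.2 ± 1.2 FPKM with phosphoramidon and 22.6 ± 1.13 FPKM untreated (0.40), and LIFR, a receptor chain of the IL6 family, averaged 4.37 ± 0.338 and 2.80 ± 0.197 FPKM (0.55). IL6, singled out after its value was seen, rose to 84.0 ± 3.92 FPKM with phosphoramidon, against 68.8 ± 0.770 FPKM untreated (0.22). Among those that fell were TNFRSF1A, a TNF receptor (37.8 ± 0.868 and 46.7 ± 0.614 FPKM, -0.38), the IL1 receptor IL1R1 (4.91 ± 0.208 and 6.72 ± 0.542 FPKM, -0.51) and the factor CEBPD (17.4 ± 0.962 and 20.4 ± 0.378 FPKM, -0.30). Whether any of these bears on C3 was not tested.

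CD55 and CD59 are held at the membrane by a glycosylphosphatidylinositol (GPI) anchor. Of 30 tested genes that make or remodel this anchor, 5 were higher, 4 were lower and 21 did not pass (median log2 fold change -0.02), near the 15.7% and 18.0% of all tested genes, so these counts are no result about the list. Its called genes are given as values. PIGX and PIGH, subunits of early transferases, averaged 7.71 ± 0.165 and 3.34 ± 0.372 FPKM with phosphoramidon, against 4.95 ± 0.186 and 1.80 ± 0.0916 FPKM untreated (0.56 and 0.78). PIGA, the catalytic subunit of the first step, averaged 5.87 ± 0.286 and 4.61 ± 0.296 FPKM (0.27). The other named members were PGAP1 (0.24), DPM3 (-0.44) and PGAP2 (-0.29), and leaving out single libraries ended the calls of PGAP1 (without phosphoramidon replicate 2 or 3 or untreated replicate 1 or 3, adjusted p up to 0.069) and PGAP2 (without any but phosphoramidon replicate 2, adjusted p up to 0.089).

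**Figure D4:**
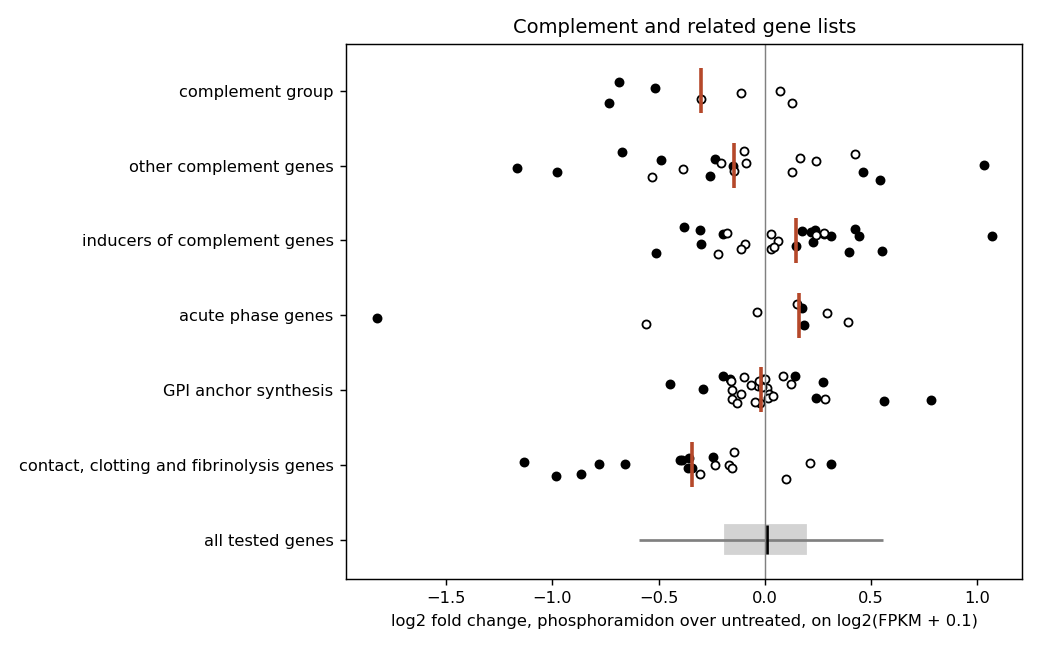
Log2 fold change of phosphoramidon over untreated on log2(FPKM + 0.1) (horizontal axis) for tested genes of the complement set and 5 related lists, filled where the adjusted p was below 0.05, with a coloured line at each list's median. The bottom row gives all 16110 tested genes as median (0.01), quartiles (-0.19 and 0.19, box) and 5th to 95th percentiles (-0.59 to 0.56, line). The complement set has its median at -0.30, the value of CFI.

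The genes whose profile over the 6 libraries lay nearest to that of C3 were YIF1A, MAGED1 and SLCO5A1. Their centred log2 values differed from those of C3 by a root mean square of 0.02, 0.03 and 0.03, out of 12262 genes compared. C1R ranked 81st by this measure (0.08) and C1S 757th (0.18), with CD55 at 3698, CD59 at 7093, CFI at 7130 and CD46 at 8602. Values were centred over all 6 libraries, so the measure includes the difference between groups. The 3 nearest genes had log2 fold changes of -0.75, -0.71 and -0.73, close to the -0.74 of C3, and nearness largely restates a fall of like size. Other measures moved between the groups alongside C3. Fibroblast markers summed to 23.5 to 24.9 FPKM with phosphoramidon and 60.9 to 65.7 FPKM untreated. Of these, 4 of 4 tested fell, against 18.0% of all tested genes, with COL1A2 and COL3A1 averaging 0.01 FPKM or less. Epithelial markers summed to 229 to 244 and 388 to 424 FPKM, and 4 of 6 tested fell (KRT8, KRT18, KRT19 and CDH6). EPCAM at 26.4 and 26.9 FPKM and CDH1 at 0.501 and 0.391 FPKM did not pass. The part of these markers in the fall of C3, C1R and C1S was not tested.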

How the data were processed

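The authors deposited FPKM per gene (fragments scaled for length and depth) for 6 libraries of total RNA. Per the submitters' processing notes, tools included Trimmomatic 0.38, HISAT2 2.1.0, featureCounts 1.6.0 and DESeq2 1.22.1 with build GRCh38, in no stated order; the sources used here give neither annotation release nor use of strand. FPKM times the merged exon length of GENCODE 29 fell on whole fragments (within 0.05) in all 6 libraries for 79.2% of 34623 genes above 0; for the others the fragments are estimates. Names came from a gene name table (37892 IDs matched).

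The plan allowed for FPKM and was followed: limma 3.58.1 (R 4.3.3) on log2(FPKM + 0.1), with values divided by TMM factors (30% of M and 5% of A values trimmed) from recovered fragments, for 16110 genes with at least 10 fragments in at least 3 libraries. Variance prior was trended and robust, and p-values were adjusted by Benjamini-Hochberg over all these genes (threshold 0.05). treat tested against 1.5-fold. Means and SDs are of FPKM as deposited; fold changes understate low genes. Ratios used exact permutation over libraries (smallest p 0.1). SERPING1 ratios were left out (0 in 2 libraries). The fit was tested on simulated data. Named are all members, up to 6 called genes per list with a mean of at least 50 fragments and the lowest p, and listed complement genes averaging at least 1 FPKM; others are marked, and some genes that the rule names are not reported here. Members, lists and tests were chosen with earlier results of these data known. Replicates differed beyond counting noise (chi-square per gene 3.21 to 7.49). Alternatives covered pseudocount, filter, scaling, voom, replicate block and left-out libraries. Sequences are RefSeq's (GRCh38.p14).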

Additional observations from a re-analysis of the deposited data

How the results depend on the processing

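The 3 lower calls of the complement set (C3, C1R and C1S) held in all 14 alternative fits, the 6 left-out libraries included. Its higher calls, 0 as reported, were 2 in the values as deposited (CD46 and CD59), 1 with voom on recovered fragments, 1 with the replicate block, and 0 to 1 on leaving out a library (CD46 in each). Deviations from the group mean correlated at 0.11, -0.02 and -0.01 between same-numbered libraries, within the range of -0.10 to 0.12 for differently numbered ones. With 3 libraries per group these values cannot settle whether the numbers pair the samples, and the labels do not say. With the replicate block CD46 passed (0.13, adjusted p = 0.033) and all genes gave 2570 higher and 2892 lower, contact and clotting genes higher went to 0 (reported 1), the other list counts moved by at most 2, and the differences in the ratios were as reported. Without a filter, 34492 genes were tested, and all genes gave 1547 higher (2530 as reported) and 1977 lower (2903). Other complement genes gave 3 lower (7), inducers 7 higher (11) and acute phase genes 1 higher (2). GPI anchor genes gave 0 lower (4) and contact and clotting genes 0 higher (1). Values as deposited gave other complement genes 4 lower and GPI anchor genes 1 lower, and voom gave acute phase genes 2 lower (1). Leaving out a library gave 4 to 6 other complement genes lower, 0 to 2 acute phase genes higher, 3 to 5 GPI anchor genes higher and 1 to 3 lower, and 0 to 1 contact and clotting genes higher. Over all genes the same fits gave 1755 to 2129 higher and 2244 to 2730 lower, against 2530 and 2903 as reported. The ratio of CFI to C3 (0.16) turned to -0.31 without phosphoramidon replicate 2 and to -0.08 without untreated replicate 1, in a range of -0.31 to 0.59, on 6 to 26 CFI fragments. Calls beyond 1.5-fold, 24 higher and 106 lower as reported, were 67 and 202 with voom, 11 and 57 with a pseudocount of 1, 12 and 51 without a filter, 43 and 148 with at least 50 fragments, 38 and 87 as deposited, and 13 to 23 and 66 to 115 on leaving out a library. The fit without a filter tested 34492 genes and that with at least 50 fragments 12380, against 16110 as reported. The cause of these moves was not tested. Depth limits CFB, CFI and SERPING1.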

Other observations

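Among genes of the contact, clotting and fibrinolysis systems, 1 of 19 tested was higher and 11 were lower, against 15.7% and 18.0% of all tested genes. The median log2 fold change was -0.34, against 0.01 over all genes tested. The contact proteases are also targets of SERPING1, and of these F12 was tested and did not pass. PLAU, urokinase, averaged 22.8 ± 0.937 FPKM with phosphoramidon and 43.0 ± 1.57 FPKM untreated (log2 fold change -0.98, limma adjusted p = 4.2e-06). TFPI2, a protease inhibitor, averaged 44.5 ± 0.472 and 77.2 ± 2.81 FPKM (-0.86), and F3, tissue factor, 5.31 ± 0.496 and 8.73 ± 0.327 FPKM (-0.78). TFPI, the tissue factor pathway inhibitor, fell with it (5.12 ± 0.379 and 7.75 ± 0.589 FPKM, -0.66), as did the anticoagulant cofactor PROS1 (-0.36) and the protease-activated receptor F2RL1 (-0.39). PLAT, the tissue plasminogen activator, was the gene that rose (0.31), and leaving out any library but phosphoramidon replicate 3 ended its call (adjusted p = 0.054 to 0.098). It was singled out as the sole rise.

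Of the acute phase genes, many of which the liver makes with C3 in inflammation, 2 of 8 tested were higher and 1 lower. Of all tested genes, 15.7% were higher and 18.0% lower, and with so few genes the counts say nothing about the list. The ferritin chains FTL (2218 ± 87.3 FPKM with phosphoramidon and 1859 ± 41.5 FPKM untreated) and FTH1 (103 ± 5.54 and 86.9 ± 3.53 FPKM) were the rises, both with many processed pseudogenes. Their calls were lost without phosphoramidon replicate 2 or untreated replicate 2 (adjusted p up to 0.089), and also without untreated replicate 3 for FTL and without phosphoramidon replicate 3 or untreated replicate 1 for FTH1. The fibrinogen chain FGB, singled out after its value was seen, fell to 0.259 ± 0.124 FPKM with phosphoramidon, against 1.07 ± 0.146 FPKM untreated. SERPINA1, alpha-1 antitrypsin, likewise singled out, averaged 33.7 ± 2.55 and 33.0 ± 1.83 FPKM and did not pass (adjusted p = 0.71).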
